A study of Mus musculus with 5 samples.

Results

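The ATF4 and amino acid stress genes are a group of 33 genes that mammalian cells switch on when amino acids run short or unfolded protein accumulates. They are the transcription factor gene Atf4, its partner and co-regulator genes, its feedback and effector targets, the enzymes of serine, one-carbon, asparagine and proline synthesis, and amino acid transporters. The members were chosen by name for these roles, and each was read from its brightest probe set with a single gene symbol. Of the 33, 31 had such a probe set among 18193 genes and 30 were bright enough to be tested among 10852 genes. Gdf15 and Pycr1 were not analysed here, and Fgf21 fell below the signal threshold of 47.4.

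RNA came from mouse B9 cells, a line from a cutaneous squamous cell carcinoma that carries HRAS-Q61L in every culture, so no culture without the mutant RAS was compared. All cultures were grown in DMEM with L-glutamine and harvested 17 h after dosing. There were 2 arrays of cells given 1 µM vemurafenib (PLX4032), 2 of cells given 1 µM PLX7904 and 1 of cells given DMSO, labelled 0.2%. The volumes in the labels' protocol come to 0.02% DMSO in the treated cultures, so a difference from DMSO and a difference in vehicle cannot be told apart. Vemurafenib, a drug against mutant BRAF, is known to raise ERK signalling in RAS-mutant cells, and PLX7904 belongs to a class of BRAF inhibitors made to avoid this effect. The labels call the replicate arrays biological. All 5 arrays are of 1 cell line, and p-values measure only the spread between these arrays, part of which may be technical.

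ATF4 is controlled mainly at translation. When a stress kinase phosphorylates the initiation factor eIF2, most protein synthesis slows while the Atf4 message is translated, and ATF4 protein then pairs with C/EBP-family factors on a DNA element called the C/EBP-ATF or amino acid response element. Its targets import and make amino acids, charge tRNAs and, through the phosphatase subunit encoded by Ppp1r15a, reverse the eIF2 phosphorylation. In tumour cells the same genes supply cystine for glutathione and serine for growth. ATF4 protein and phosphorylated eIF2 were not among the values analysed here.

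Each value below is a deposited signal on a linear scale, and a gene is said to have risen or fallen only where limma's adjusted p over all 10852 genes was under 0.05. The array medians lay between 44.1 and 51.9. Replicate arrays correlated at 0.990 for vemurafenib and 0.989 for PLX7904, and the DMSO array correlated at 0.990 with the PLX7904 arrays and 0.980 to 0.981 with the vemurafenib arrays. The labelled cell type was checked on keratinocyte markers. All 11 measured of 12 listed were above the threshold, with mean signals of 3147 to 24641. Their summed signal was 132601 to 132725 with vemurafenib, 123444 to 128190 with PLX7904 and 121082 with DMSO. Of these 11, 4 rose and 1 fell with vemurafenib against PLX7904, and 3 rose and 1 fell against DMSO. Over all tested genes 6.43% rose and 6.87% fell against PLX7904, and 5.43% and 5.21% against DMSO. The markers' log2 differences ran from -0.23 to 0.71 against PLX7904 and from -0.26 to 0.63 against DMSO. Above the threshold were also 1 of 6 fibroblast markers, 1 of 5 endothelial, 2 of 6 measured immune and 1 of 5 melanocyte markers, none with a mean above 155.3. The summed fibroblast signal was 373 to 402 with vemurafenib, 195 to 246 with PLX7904 and 164 with DMSO. Pdgfra, a receptor of mesenchymal cells, made up most of that sum and rose in vemurafenib against PLX7904 (log2 difference 0.86, limma adjusted p = 0.0166) and against DMSO (1.53, adjusted p = 0.00327). Pmel, a melanosome gene, rose in vemurafenib against DMSO (2.48, adjusted p = 0.00938). Pmel gave 85.5 and 82.8 with vemurafenib, 72.2 and 60.8 with PLX7904 and 12.4 with DMSO, and its mean of 54.3 lay near the threshold. Its log2 difference was 0.33 for vemurafenib against PLX7904 (limma adjusted p = 0.639, not passed) and 2.15 for PLX7904 against DMSO. The part of these markers in the results below was not tested. In a bulk culture, fewer cells of a type and less RNA per cell cannot be told apart.

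The called members went both ways, as did the calls over all tested genes. With vemurafenib against PLX7904, 3 of the 30 tested members rose (Ppp1r15a, Atf3, Chac1) and 5 fell (Cebpb, Slc7a11, Slc7a5, Slc3a2, Slc1a4). The 8 called members are 26.7% of 30, beside 13.3% of all tested genes; 6.43% of all genes were called higher and 6.87% lower. With vemurafenib against DMSO, 1 member rose (Ppp1r15a) and 4 fell (Nupr1, Slc7a11, Slc7a5, Slc1a4). These 5 are 16.7% of the members, beside 10.6% of all genes, of which 5.43% were called higher and 5.21% lower. Both comparisons use the same vemurafenib arrays, and 4 members were called in both. With PLX7904 against DMSO no member passed in limma, and 0 of 10852 genes did (0% called). At an unadjusted p under 0.05 that comparison held 3 members (Atf3, Slc7a11, Slc3a2) and 722 genes (6.65%), and limma without an intensity trend also called 0. The smallest adjusted p was 0.0563, and other settings did call genes, though no member. These were a model with replicate number, a fit without probe sets of suffix x, s or a, which may match several transcripts, and centring over all probe sets.

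The centre of the group lay close to that of all genes. The median log2 difference of the 30 members was -0.11 for vemurafenib against PLX7904, where the median of all tested genes was -0.04. It was -0.05 for vemurafenib against DMSO, as for all genes, and -0.04 for PLX7904 against DMSO, with -0.01 for all genes. Both vemurafenib arrays lay above both PLX7904 arrays for 5 members and below them for 13, where 23.8% and 32.2% of all genes did so. They lay above the DMSO array for 9 members and below it for 15, beside 34.2% and 47.7% of all genes. The PLX7904 arrays lay above the DMSO array for 10 members and below it for 12, beside 30.8% and 35.7%.

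**Figure D1:**
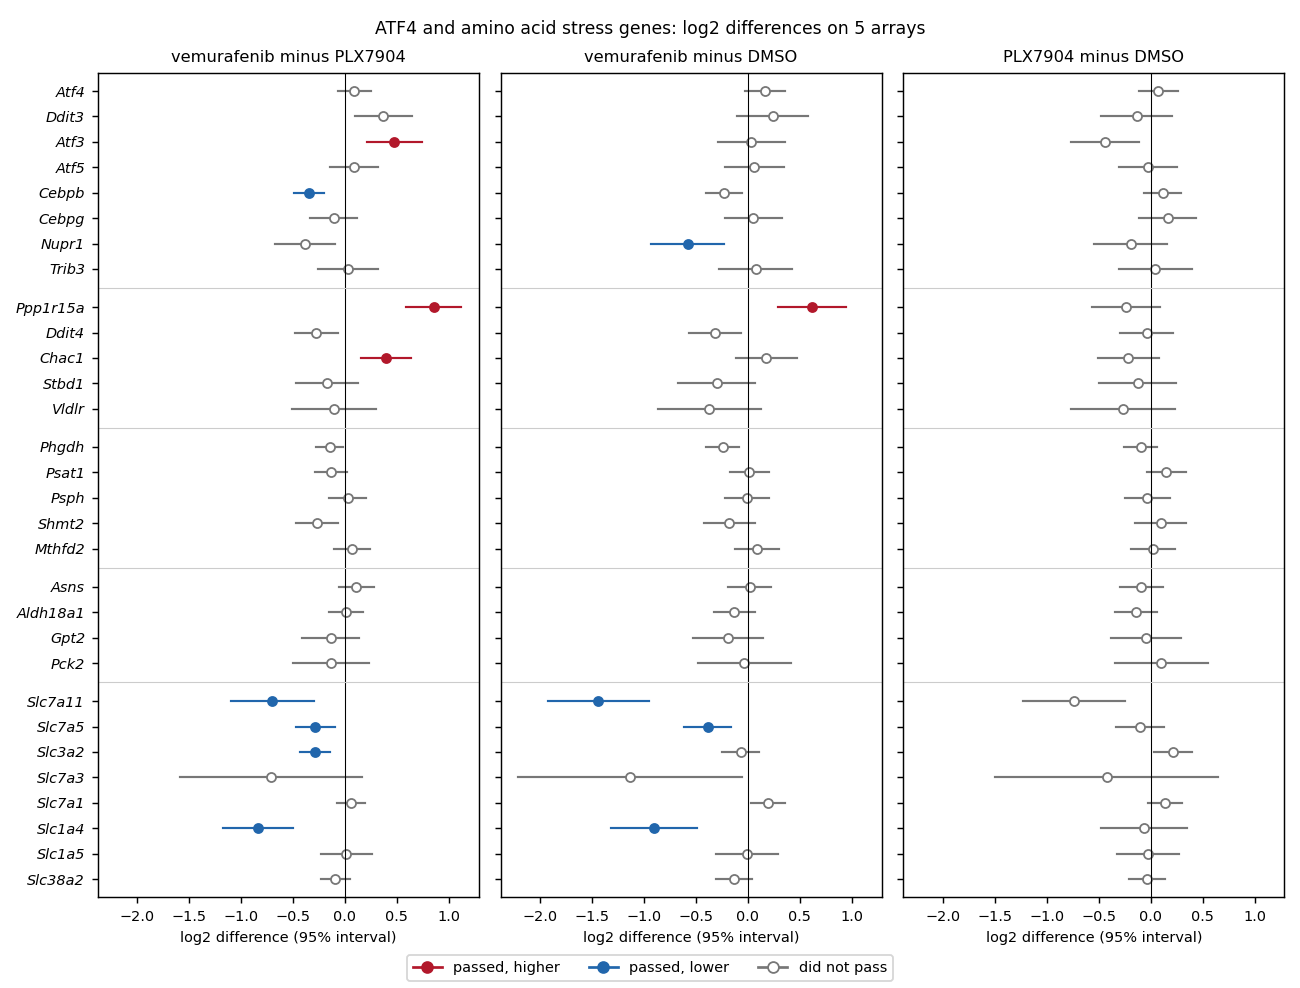
Log2 differences (horizontal axis) of the 30 tested members in the 3 comparisons, with 95% intervals from limma; members run down the page by role, and filled points passed. Filled red points are Ppp1r15a, Atf3 and Chac1, the filled blue points lie mainly among the transporters at the bottom, and the panel of PLX7904 against DMSO has no filled point.

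The response element was looked for in the RefSeq promoters of GRCm38.p6, which run from 250 bases before to 50 after a start site. The letters searched were TGATGNAA, read as TTNCATCA on the other strand, and the search letters overlap no other motif used here. A promoter was in the table for 30 of the 33 members, and Slc7a3, Slc7a5 and Slc1a5 were without an entry. The motif was in 11 of these 30 (36.7%), beside 1219 of 27025 genes (4.51%), 1304 of 32851 promoters (3.97%) and 231 of 8851 tested genes with a promoter (2.61%). The members were chosen as genes reported to respond to ATF4, so this share is a description of the choice. The stretches below are printed in the direction of transcription, with the motif in capitals, because they belong to the called members that hold it and to Asns, the asparagine synthetase gene in which the element is well known.
Slc7a11, chr3:50443613-50443719, minus strand: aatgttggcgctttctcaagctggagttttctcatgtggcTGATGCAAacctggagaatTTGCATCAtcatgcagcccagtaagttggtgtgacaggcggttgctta
Slc1a4, chr11:20332694-20332757, minus strand: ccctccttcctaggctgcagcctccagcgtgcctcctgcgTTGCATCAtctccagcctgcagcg
Nupr1, chr7:126625533-126625620, minus strand: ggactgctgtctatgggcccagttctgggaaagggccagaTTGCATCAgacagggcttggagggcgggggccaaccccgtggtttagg
Atf3, chr1:191183396-191183483, minus strand: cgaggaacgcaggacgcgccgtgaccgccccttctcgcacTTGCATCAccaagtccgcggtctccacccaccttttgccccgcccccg
Chac1, chr2:119351009-119351096, plus strand: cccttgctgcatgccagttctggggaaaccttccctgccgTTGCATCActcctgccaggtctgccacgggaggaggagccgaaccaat
Asns, chr6:7693190-7693272, minus strand: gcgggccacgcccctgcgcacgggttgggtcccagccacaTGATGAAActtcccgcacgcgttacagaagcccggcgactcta

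Slc7a11 holds 2 matches, 1 on each strand, with first bases at -66 and -47 from the start. In Slc1a4 the match spans -4 to 4 and in Asns it begins at -23. Atf3 and Nupr1 both carry it from -110 to -103, and in Chac1 it begins at -193. The called members that hold the same letters moved in opposite directions. Of the 9 tested members with the motif, 2 rose (Atf3, Chac1) and 2 fell (Slc7a11, Slc1a4) with vemurafenib against PLX7904, while 0 rose and 3 fell against DMSO. Of the 18 tested members with a promoter and no match, 1 rose and 2 fell against PLX7904, and 1 rose and 0 fell against DMSO. Among all 231 tested genes with the motif, 10.4% rose and 6.93% fell with vemurafenib against PLX7904, beside 6.41% and 6.87% of the 8851 genes with a promoter. Against DMSO 8.66% rose and 7.79% fell, beside 5.42% and 5.05%.

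**Figure D2:**
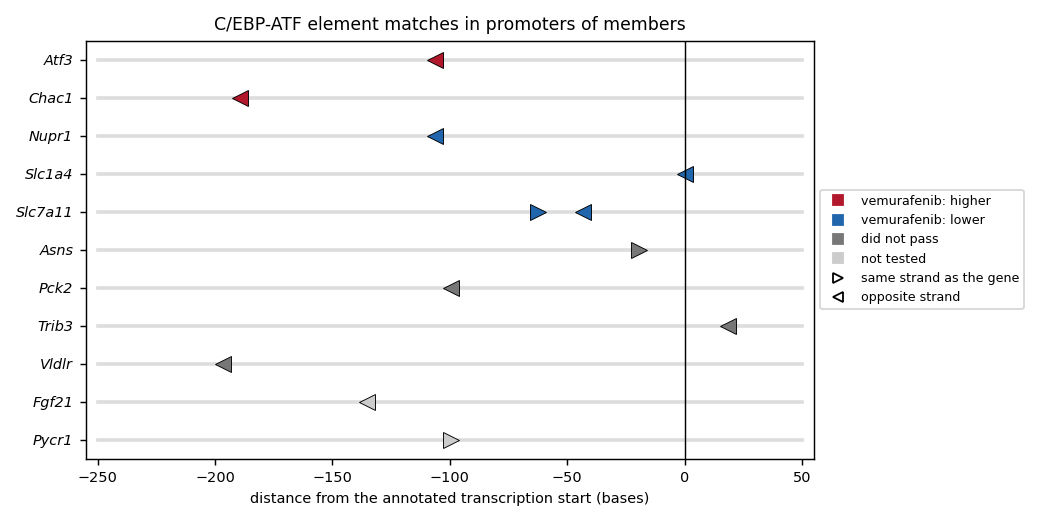
Position of the response element letters in the promoters of the 11 members that hold them, in bases from the start site (horizontal axis), 1 line per member; arrowheads point along the strand of the match and are coloured by the call with vemurafenib against PLX7904 or DMSO. Matches lie between -200 and 22, and members that rose, fell or did not pass all occur among them.

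Among the 8 transcription factor and co-regulator genes, 1 rose and 1 fell with vemurafenib against PLX7904, and 1 fell against DMSO. Of all tested genes, 6.43% rose and 6.87% fell against PLX7904, and 5.21% fell against DMSO. Atf4 gave signals of 6935 and 7734 with vemurafenib, 7009 and 6747 with PLX7904 and 6528 with DMSO. The vemurafenib and PLX7904 arrays overlapped, and the log2 difference was 0.09 (95% interval -0.06 to 0.25; limma adjusted p = 0.451). Against DMSO it was 0.17 for vemurafenib (-0.02 to 0.36; adjusted p = 0.255). Atf4 message therefore did not pass in any comparison. Its second brightest probe set, with a mean signal of 3130, gave 0.24 against PLX7904 and 0.11 against DMSO.

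Atf3, a stress-induced factor of the same protein family, rose in vemurafenib against PLX7904. Its signals were 484 and 481 with vemurafenib, 332 and 361 with PLX7904 and 471 with DMSO. The fold was 1.39 (95% interval 1.16 to 1.67; limma adjusted p = 0.0264). The DMSO array lay beside the vemurafenib arrays, so that vemurafenib against DMSO gave a log2 difference of 0.03 and PLX7904 against DMSO one of -0.44 (-0.77 to -0.11; adjusted p = 0.55). Ddit3, which encodes CHOP, a factor that promotes death under lasting stress, gave 875 and 967 with vemurafenib, 799 and 632 with PLX7904 and 779 with DMSO. Its log2 difference against PLX7904 was 0.37 (adjusted p = 0.0808) and did not pass.

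Cebpb, a partner of ATF4 on the response element, fell in vemurafenib against PLX7904. It gave 6989 and 7580 with vemurafenib, 9471 and 9049 with PLX7904 and 8543 with DMSO, and both vemurafenib arrays were below all others. It was 1.27 times lower than with PLX7904 (95% interval 1.15 to 1.40; limma adjusted p = 0.00638), and its second probe set gave a log2 difference of -0.31. Against DMSO the difference was -0.23 (adjusted p = 0.094), and with quantile normalization it passed at -0.31 (limma adjusted p = 0.0292). Nupr1, a small chromatin-associated stress protein, fell in vemurafenib against DMSO. Its signals were 315 and 355 with vemurafenib, 462 and 415 with PLX7904 and 500.0 with DMSO. It was 1.49 times lower than with DMSO (1.17 to 1.90; adjusted p = 0.0446), and the log2 difference of -0.39 against PLX7904 did not pass (adjusted p = 0.0786).

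The other regulators stayed within narrow ranges. Trib3, a pseudokinase that binds ATF4 and dampens it, gave 367 and 335 with vemurafenib, 348 and 339 with PLX7904 and 333 with DMSO. Its log2 difference against PLX7904 was 0.03 (adjusted p = 0.91). Atf5, a related factor of the mitochondrial stress response, gave 766 and 712 with vemurafenib, 670 and 721 with PLX7904 and 707 with DMSO. Cebpg, which pairs with ATF4, gave 1058 and 938 with vemurafenib, 1122 and 1030 with PLX7904 and 960 with DMSO. The vemurafenib and PLX7904 arrays overlapped for both genes, and neither passed.

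Several of these regulator calls ended when 1 array was left out or 1 setting was changed. A fit with 1 array fewer also has less power, so an ended call alone does not trace a difference to that array. The Atf3 call ended without vemurafenib replicate 1 (log2 difference 0.47, adjusted p = 0.0960), without vemurafenib replicate 2 (0.48, adjusted p = 0.0735) and without PLX7904 replicate 1 (0.41, adjusted p = 0.0910). The Cebpb call ended without vemurafenib replicate 1 (-0.29, adjusted p = 0.0556), and the Nupr1 call ended without vemurafenib replicate 1 (-0.49, adjusted p = 0.142) and with quantile normalization (-0.49, adjusted p = 0.0855), and in 8 of 13 alternatives in all.

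Of the 5 feedback and effector genes, 2 rose with vemurafenib against PLX7904 and 1 of them also against DMSO. Among all tested genes 6.43% rose against PLX7904 and 5.43% against DMSO. Ppp1r15a encodes GADD34, the subunit that brings a phosphatase to eIF2 and ends the translation block. Its signals were 773 and 668 with vemurafenib, 406 and 385 with PLX7904 and 467 with DMSO. Both vemurafenib arrays were above all others, and the PLX7904 arrays were the lowest. The fold was 1.81 against PLX7904 (95% interval 1.51 to 2.17; limma adjusted p = 0.00131) and 1.53 against DMSO (1.23 to 1.92; adjusted p = 0.0240). PLX7904 against DMSO gave a log2 difference of -0.24 (adjusted p = 0.831). Chac1, an enzyme that degrades glutathione, gave 604 and 624 with vemurafenib, 462 and 471 with PLX7904 and 542 with DMSO. Its DMSO value lay between the other groups, and the fold was 1.31 against PLX7904 (1.11 to 1.55; adjusted p = 0.0370). Against DMSO the log2 difference was 0.18 (adjusted p = 0.437).

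The remaining effectors had differences below 0 that did not pass. Ddit4, an inhibitor of the growth kinase complex mTORC1, gave 836 and 880 with vemurafenib, 1048 and 1028 with PLX7904 and 1067 with DMSO. Both vemurafenib arrays were the lowest, with a log2 difference of -0.27 against PLX7904 (adjusted p = 0.0808) and -0.31 against DMSO (adjusted p = 0.111). Stbd1, a glycogen-binding protein, gave 306 and 287 with vemurafenib, 353 and 318 with PLX7904 and 366 with DMSO. Vldlr, a lipoprotein receptor, gave 397 and 456 with vemurafenib, 368 and 568 with PLX7904 and 550.4 with DMSO. The PLX7904 arrays of Vldlr enclosed those of vemurafenib. Fgf21, a secreted hormone of starvation, gave 4.7 and 17.3 with vemurafenib, 12.1 and 2.6 with PLX7904 and 3.1 with DMSO, all below the threshold. The Chac1 call ended without any 1 of the 4 treated arrays, at adjusted p-values of 0.117 and 0.155 without vemurafenib replicate 1 or 2 and 0.0912 and 0.0833 without PLX7904 replicate 1 or 2. The Ppp1r15a call against DMSO ended without vemurafenib replicate 1 (log2 difference 0.51, adjusted p = 0.103).

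The tested biosynthetic enzymes ran from a mean signal of 370 for Pck2 to 11500 for Phgdh. In the main limma fit, none of the 5 serine and one-carbon genes passed in any comparison. None of the 4 measured asparagine, proline, alanine and phosphoenolpyruvate genes did either. With quantile normalization Phgdh was called in both vemurafenib comparisons. Fits without 1 PLX7904 array, which leave 1 array in that group, also gained Phgdh against DMSO or Shmt2 against PLX7904. At an unadjusted p under 0.05 stood 2 of the serine and one-carbon genes against PLX7904, 1 of them against DMSO and 0 of the other enzymes. That threshold held 27.3% of all tested genes against PLX7904 and 25.9% against DMSO. Phgdh, the entry enzyme of serine synthesis, gave 10831 and 10176 with vemurafenib, 11799 and 11410 with PLX7904 and 12393 with DMSO. Its vemurafenib arrays were the lowest, at a log2 difference of -0.14 against PLX7904 (adjusted p = 0.14) and -0.24 against DMSO (adjusted p = 0.0608). Shmt2, the mitochondrial enzyme that turns serine into glycine, gave 1645 and 1775 with vemurafenib, 2192 and 1941 with PLX7904 and 1931 with DMSO. It too was lowest with vemurafenib, by -0.27 against PLX7904 (adjusted p = 0.0774). Psat1 and Psph, the next enzymes of serine synthesis, differed by -0.14 and 0.03 on the log2 scale against PLX7904. Mthfd2, the mitochondrial folate enzyme, gave 3411 and 3096 with vemurafenib, 3137 and 3071 with PLX7904 and 3054 with DMSO, a log2 difference of 0.07 against PLX7904. The 95% intervals of the 5 genes reached from -0.47 to 0.24 against PLX7904 and from -0.42 to 0.30 against DMSO.

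Asns, the asparagine synthetase gene, gave 3119 and 2854 with vemurafenib, 2751 and 2785 with PLX7904 and 2945 with DMSO. The DMSO array lay between the 2 vemurafenib arrays, and the log2 difference was 0.11 against PLX7904 (95% interval -0.06 to 0.28; limma adjusted p = 0.411) and 0.02 against DMSO (adjusted p = 0.927). Aldh18a1, which starts proline synthesis, gave 2899 and 2960 with vemurafenib, 2829 and 2997 with PLX7904 and 3207 with DMSO. Gpt2, a mitochondrial alanine transaminase, gave 398 and 379 with vemurafenib, 453 and 403 with PLX7904 and 442 with DMSO. Both genes were highest on the DMSO array or on a PLX7904 array by small margins. Pck2, the mitochondrial phosphoenolpyruvate carboxykinase, gave 420 and 297 with vemurafenib, 398 and 380 with PLX7904 and 362 with DMSO, so that the vemurafenib arrays enclosed the rest. The 95% intervals of these 4 genes reached from -0.50 to 0.28 against PLX7904 and from -0.52 to 0.42 against DMSO.

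The transporters held most of the falls: 4 of 8 fell and 0 rose with vemurafenib against PLX7904, and 3 fell and 0 rose against DMSO. Of all tested genes, 6.87% were called lower against PLX7904 and 5.21% against DMSO. Their median log2 difference was -0.29 against PLX7904 and -0.26 against DMSO, beside -0.04 and -0.05 for all genes. Slc7a11 is the light chain of the cystine/glutamate exchanger that feeds glutathione synthesis. Its signals were 416 and 427 with vemurafenib, 544 and 867 with PLX7904 and 1147 with DMSO. The 3 groups did not overlap, and the PLX7904 arrays lay apart from each other. It was 2.71 times lower with vemurafenib than with DMSO (95% interval 1.93 to 3.80; limma adjusted p = 0.00303) and 1.63 times lower than with PLX7904 (1.23 to 2.14; adjusted p = 0.0284). PLX7904 against DMSO gave a log2 difference of -0.74 (-1.23 to -0.25; adjusted p = 0.493). A dimmer probe set gave 260.3 and 267 with vemurafenib, 316 and 418 with PLX7904 and 390 with DMSO, with log2 differences of -0.46 against PLX7904 and -0.56 against DMSO. On that probe set the DMSO array fell between the PLX7904 arrays.

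Slc1a4, a carrier of serine, alanine and other small neutral amino acids, gave 224 and 275 with vemurafenib, 408 and 488 with PLX7904 and 466 with DMSO. Both vemurafenib arrays were below all others, and the DMSO array lay between the PLX7904 arrays. It was 1.79 times lower than with PLX7904 (95% interval 1.42 to 2.26; limma adjusted p = 0.00557) and 1.87 times lower than with DMSO (1.40 to 2.49; adjusted p = 0.0128). Its other probe sets moved the same way, with log2 differences of -1.22 and -0.95 against PLX7904 and -1.04 and -0.75 against DMSO.

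Slc7a5, the light chain of the large neutral amino acid carrier LAT1, fell in both vemurafenib comparisons by smaller amounts. Its signals were 1618 and 1639 with vemurafenib, 2087 and 1894 with PLX7904 and 2131 with DMSO. It was 1.22 times lower than with PLX7904 (95% interval 1.07 to 1.39; limma adjusted p = 0.0485) and 1.31 times lower than with DMSO (1.12 to 1.53; adjusted p = 0.0395). Slc3a2, the heavy chain that both LAT1 and the cystine exchanger need, fell in vemurafenib against PLX7904. It gave 3929 and 3902 with vemurafenib, 4720.4 and 4824 with PLX7904 and 4109 with DMSO. It was 1.22 times lower than with PLX7904 (1.10 to 1.35; adjusted p = 0.0179), while vemurafenib against DMSO gave a log2 difference of -0.07 (adjusted p = 0.633) and PLX7904 against DMSO one of 0.22 (0.04 to 0.39; adjusted p = 0.624).

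The other carriers did not pass. Slc7a3, a carrier of cationic amino acids, was dim, with 47.7 and 30.4 with vemurafenib, 61.2 and 68.3 with PLX7904 and 87.8 with DMSO. Its arrays did not overlap, at log2 differences of -0.71 against PLX7904 (adjusted p = 0.283) and -1.13 against DMSO (adjusted p = 0.171). Slc7a1, the main cationic carrier, gave 8681 and 9175 with vemurafenib, 8457 and 8685 with PLX7904 and 7812 with DMSO. It was lowest with DMSO, at a log2 difference of 0.19 for vemurafenib (adjusted p = 0.132). With median centring Slc7a1 was called against DMSO. Slc1a5, a glutamine carrier, gave 621 and 699.6 with vemurafenib, 675 and 633 with PLX7904 and 664 with DMSO. Slc38a2, a carrier that takes up small neutral amino acids with sodium, gave 9658 and 10504 with vemurafenib, 10399 and 11073 with PLX7904 and 11016 with DMSO. The vemurafenib and PLX7904 arrays overlapped for both Slc1a5 and Slc38a2.

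The transporter calls differed in how they stood. The Slc7a11 call against PLX7904 ended without PLX7904 replicate 2 (log2 difference -0.37). Without vemurafenib replicate 1 or 2, PLX7904 against DMSO passed for Slc7a11 at an unchanged log2 difference of -0.74. No vemurafenib array enters that difference, so the pass came with a changed estimate of the spread. The Slc7a5 call against PLX7904 ended without vemurafenib replicate 1 (-0.28, adjusted p = 0.210) or 2 (-0.30, adjusted p = 0.146) and without PLX7904 replicate 1 (-0.22, adjusted p = 0.140), and against DMSO it ended without vemurafenib replicate 1 (-0.38, adjusted p = 0.119) or 2 (-0.40, adjusted p = 0.0847). The Slc3a2 call ended without vemurafenib replicate 1 (-0.29, adjusted p = 0.102) or 2 (-0.28, adjusted p = 0.0976). No left-out array ended the Slc1a4 calls, the Slc7a11 call against DMSO or the Ppp1r15a call against PLX7904.

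**Figure D3:**
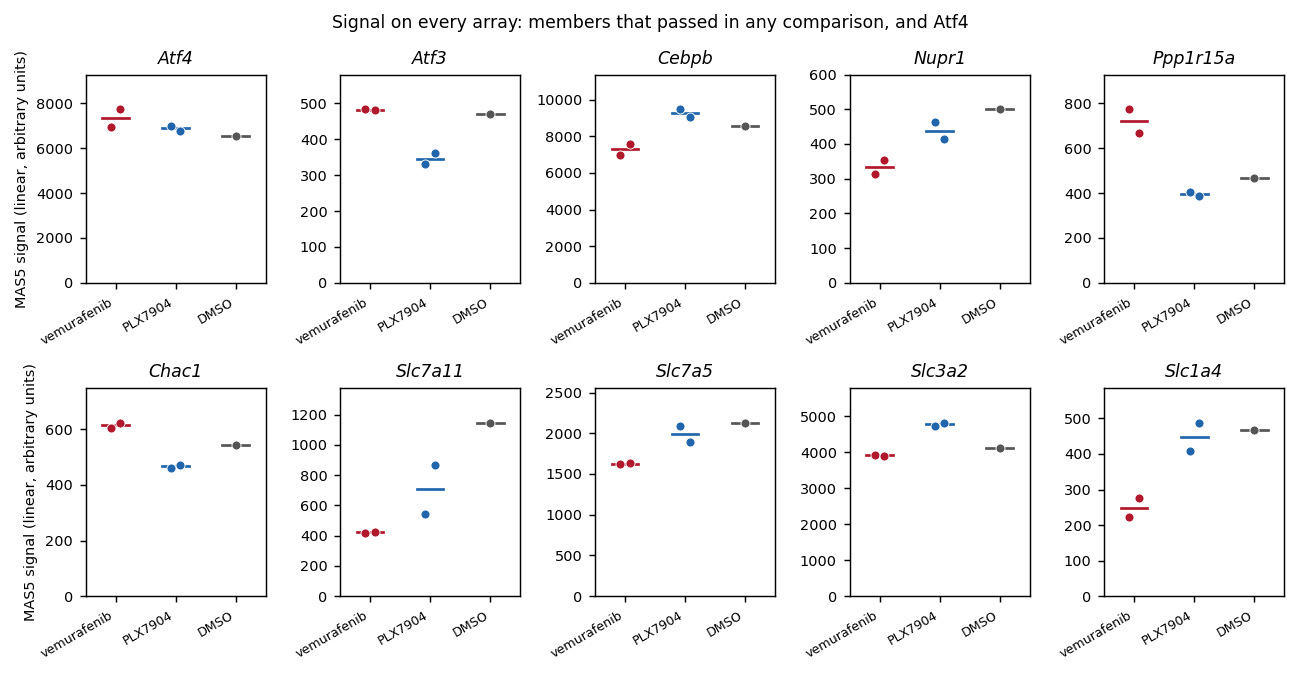
Signal on each of the 5 arrays (vertical axis, linear scale from 0) for Atf4 and the 9 members called in any comparison, with vemurafenib left, PLX7904 in the middle and DMSO right; each point is 1 array and each bar a group mean. Ppp1r15a stands higher in vemurafenib (773 and 668) than in PLX7904 (406 and 385), and Slc7a11 and Slc1a4 stand lower in vemurafenib than in either other group.

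Probe sets of the same gene gave a further reading. Of the members, 19 had more than 1 probe set above the threshold, with 34 probe sets besides those used. Of the 34, 27 had the same direction as the probe set used for vemurafenib against PLX7904, 26 for vemurafenib against DMSO and 23 for PLX7904 against DMSO. The disagreements lay among genes with small differences: Aldh18a1, Cebpg, Gpt2, Mthfd2, Slc1a5 and Vldlr against PLX7904, and Cebpg, Ddit3, Gpt2, Shmt2 and Slc1a5 against DMSO. Asns, Atf4, Cebpg, Gpt2, Phgdh, Shmt2, Slc1a4 and Slc1a5 disagreed for PLX7904 against DMSO. No called difference was among them.

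**Figure D4:**
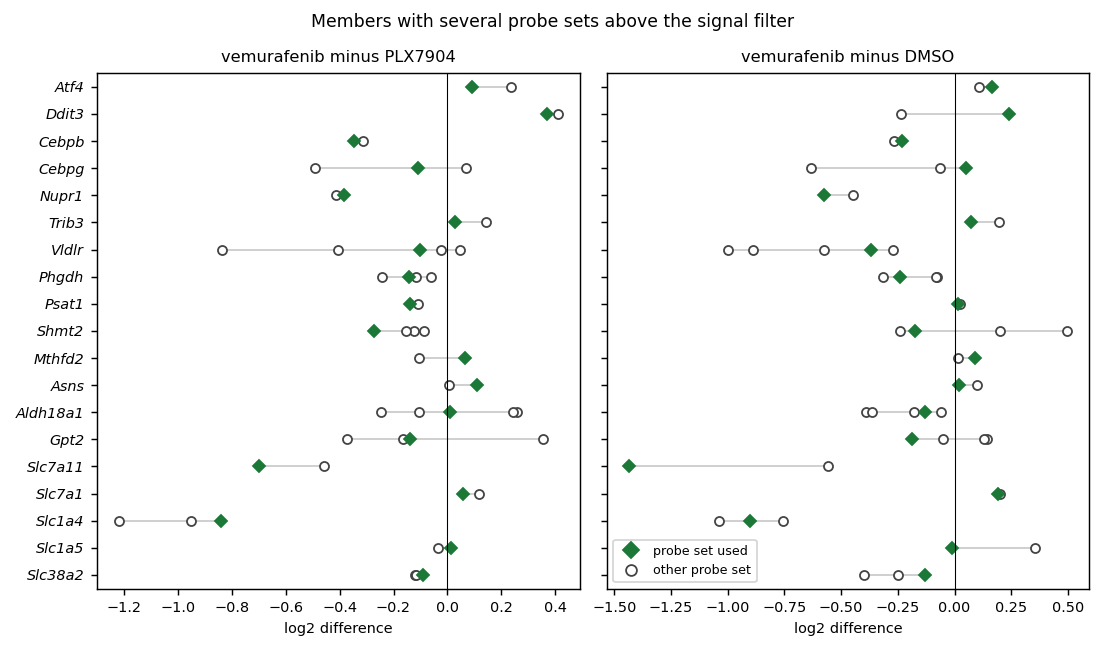
Log2 differences (horizontal axis) of every probe set above the threshold for the 19 members with more than 1, for vemurafenib against PLX7904 and against DMSO; diamonds are the probe sets used and circles the others. All 3 points of Slc1a4 lie far below 0, at -1.22 and -0.95 against PLX7904 for the circles, while points of genes near 0 fall on either side.

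The wider pathway was read from 4 further lists. Beside their counts, 6.43% of all tested genes were called higher and 6.87% lower with vemurafenib against PLX7904. Against DMSO the shares of all genes were 5.43% and 5.21%. Of 15 tested genes (16 listed) for eIF2, its kinases, its exchange factor and its phosphatase, 1 rose and 0 fell with vemurafenib against PLX7904, and 2 rose and 0 fell against DMSO. Dnajc3, an inhibitor of eIF2 kinases and chaperone of the endoplasmic reticulum, gave 3238 and 3307 with vemurafenib, 2493 and 2705 with PLX7904 and 2516 with DMSO. Its fold was 1.26 against PLX7904 (limma adjusted p = 0.0173) and 1.30 against DMSO (adjusted p = 0.0283), but as a mean over all its probe sets it turned to -0.04 against DMSO on the log2 scale. Eif2s2, a subunit of eIF2, was 1.17-fold higher than with DMSO (adjusted p = 0.0470), and as a mean over its probe sets it turned to -0.13. Leaving out either vemurafenib array ended the calls of Dnajc3 (adjusted p = 0.0645 and 0.0846 against PLX7904, 0.0728 and 0.0937 against DMSO) and of Eif2s2 (0.235 and 0.106). The median of the list was -0.08 and -0.06 on the log2 scale, beside -0.04 and -0.05 for all genes. Of 19 tested cytosolic aminoacyl-tRNA synthetases (20 listed), the enzymes that load amino acids onto tRNAs, 1 rose and 0 fell against PLX7904, and 2 rose and 0 fell against DMSO. Rars, which loads arginine, gave 8439 and 8028 with vemurafenib, 6603 and 6571 with PLX7904 and 6189 with DMSO. Its fold was 1.25 against PLX7904 (adjusted p = 0.00722) and 1.33 against DMSO (adjusted p = 0.00736), and the call against PLX7904 ended without vemurafenib replicate 1 (log2 difference 0.29, adjusted p = 0.0732). Gars, which loads glycine, was 1.21-fold higher than with DMSO (adjusted p = 0.0443), a call that ended without vemurafenib replicate 1 (log2 difference 0.26, adjusted p = 0.193) or 2 (0.28, adjusted p = 0.140) and with quantile normalization (0.21, adjusted p = 0.0953). The list's median was -0.03 against PLX7904 and 0.12 against DMSO.

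Of 22 other tested genes reported as ATF4 targets (24 listed), 5 rose and 0 fell with vemurafenib against PLX7904. Against DMSO 1 rose and 0 fell. All tested genes had 6.43% called higher and 6.87% lower against PLX7904, and 5.43% and 5.21% against DMSO. Rgs2, a regulator of G-protein signalling that also restrains translation, was 1.51-fold higher than with PLX7904 (limma adjusted p = 0.0096). Tubb2a, a tubulin, was 1.37-fold higher (adjusted p = 0.00542), and Sqstm1, an autophagy receptor, 1.34-fold (adjusted p = 0.0219). Eif4ebp1, a repressor of cap-dependent translation, was 1.19-fold higher (adjusted p = 0.0295) and Map1lc3b, an autophagosome protein, 1.17-fold (adjusted p = 0.0306). Sqstm1 was also 1.52-fold higher than with DMSO (adjusted p = 0.0128). As a mean over its probe sets, Map1lc3b turned to -0.31 on the log2 scale against PLX7904. Without probe sets of suffix x, s or a, Tubb2a and Sqstm1 turned to -0.04 and -0.0053 in that comparison. The same restriction ended the calls of Eif4ebp1 (0.056, adjusted p = 0.690) and Map1lc3b (0.056, adjusted p = 0.735) against PLX7904 and that of Sqstm1 against DMSO (0.11, adjusted p = 0.888), so that of the 5 rises against PLX7904 Rgs2 alone kept its call. Leaving out PLX7904 replicate 2 ended the calls against PLX7904 of Rgs2 (0.48, adjusted p = 0.0528), Sqstm1 (0.27, adjusted p = 0.0822) and Eif4ebp1 (0.21, adjusted p = 0.0783). Leaving out vemurafenib replicate 1 ended those of Sqstm1 (0.36, adjusted p = 0.0732), Eif4ebp1 (0.25, adjusted p = 0.163) and Map1lc3b (0.21, adjusted p = 0.229), and leaving out vemurafenib replicate 2 ended those of Eif4ebp1 (0.26, adjusted p = 0.121) and Map1lc3b (0.24, adjusted p = 0.122). Against DMSO Rgs2 passed without vemurafenib replicate 1 (0.58, adjusted p = 0.0281) or PLX7904 replicate 2 (0.46, adjusted p = 0.0487). The list's median was -0.05 against PLX7904 and 0.01 against DMSO.

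The last list held 19 tested transporters and enzymes of amino acid and one-carbon metabolism outside the 33 (30 listed). Of these 19, 0 rose and 4 fell with vemurafenib against PLX7904, and 0 rose and 1 fell against DMSO. All tested genes had 6.43% called higher and 6.87% lower against PLX7904, and 5.43% and 5.21% against DMSO. Slc6a6, the taurine carrier, gave 1346 and 1191 with vemurafenib, 1736 and 1877 with PLX7904 and 2644 with DMSO. The 3 groups did not overlap, and it was 1.42 times lower than with PLX7904 (limma adjusted p = 0.00564) and 2.09 times lower than with DMSO (adjusted p = 3.37e-04). As a mean over its probe sets both calls of Slc6a6 ended, at log2 differences of -0.20 (adjusted p = 0.724) and -0.40 (adjusted p = 0.562). PLX7904 against DMSO passed for Slc6a6 without vemurafenib replicate 1 or 2, at the same log2 difference of -0.55 in both. No vemurafenib array enters that difference, so the pass came with a changed estimate of the spread. Slc1a3, a glutamate carrier, was dim at 14.9 and 25.9 with vemurafenib, 57.0 and 89.9 with PLX7904 and 88.3 with DMSO, a log2 difference of -1.70 against PLX7904 (adjusted p = 0.0400). That call ended without vemurafenib replicate 1 (-1.36, adjusted p = 0.0959), without PLX7904 replicate 1 (-2.01, adjusted p = 0.0568) or 2 (-1.39, adjusted p = 0.195), and with quantile normalization (-1.60, adjusted p = 0.0593). Against DMSO Slc1a3 passed without vemurafenib replicate 2 (-2.33, adjusted p = 0.0120). Slc38a1, a glutamine carrier, and Mthfd1, a cytosolic folate enzyme, were 1.28 times (adjusted p = 0.0343) and 1.22 times (adjusted p = 0.0468) lower than with PLX7904. The Slc38a1 call ended without vemurafenib replicate 1 (log2 difference -0.27) and without PLX7904 replicate 2 (-0.26). It also ended when probe sets of suffix x, s or a, which may match several transcripts, were left out (-0.08, limma adjusted p = 0.702). The Mthfd1 call ended without vemurafenib replicate 1 (-0.23, adjusted p = 0.268) or PLX7904 replicate 1 (-0.20, adjusted p = 0.158). The list's median was -0.19 against PLX7904 and -0.14 against DMSO. No gene of these 4 lists passed for PLX7904 against DMSO by limma, and 1 gene of each list had an unadjusted p under 0.05. Over all tested genes 6.65% had such a p.

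**Figure D5:**
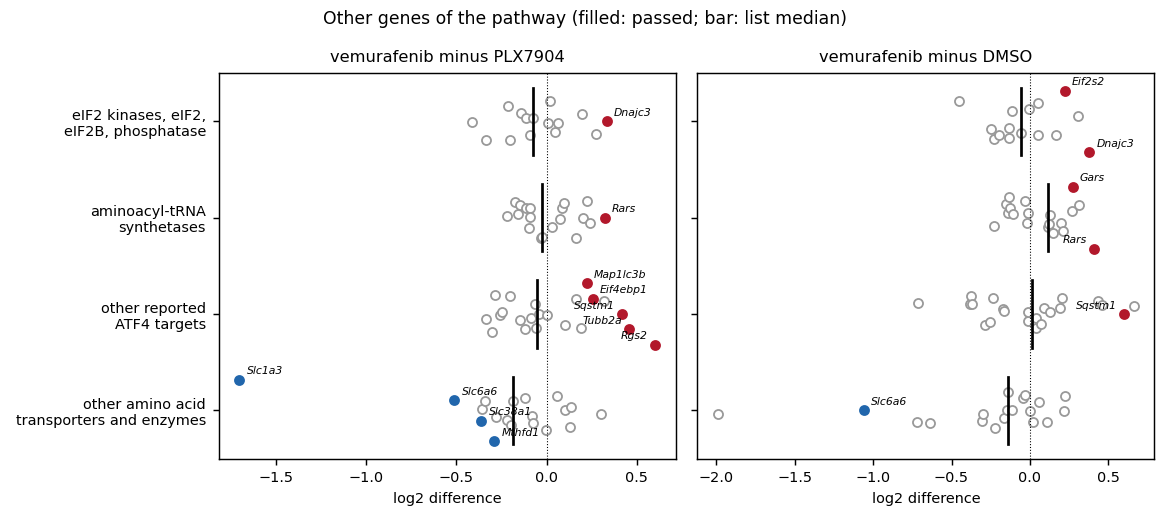
Log2 differences (horizontal axis) of the tested genes in 4 further lists of the pathway, for vemurafenib against PLX7904 and against DMSO; each point is 1 gene, filled where it passed, and the bar is the list's median. Filled points lie above 0 in the first 3 lists and below 0 among the other transporters and enzymes.

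Every member call in both vemurafenib comparisons rested on limma's intensity trend. Without it 0 of 30 members passed in any comparison, and the smallest adjusted p among the calls were 0.0642 for Ppp1r15a, 0.0843 for Atf3 and 0.0852 for Slc1a4, all against PLX7904. Centring each array on the median of all probe sets, chosen after the data were seen, moved the median of all genes by 0.15 for both vemurafenib comparisons. Under it the calls of Cebpb (log2 difference -0.20, adjusted p = 0.265), Slc3a2 (-0.14, adjusted p = 0.456) and Slc7a5 (-0.14, adjusted p = 0.489) against PLX7904 ended, Ddit3 was called higher against PLX7904, and 80.0% of all calls were higher in vemurafenib instead of 48.4%. Against DMSO 77.7% of all calls were higher under it instead of 51.0%, and 68.9% when arrays were centred on the tested genes. The members' median became 0.04 against PLX7904 and 0.10 against DMSO, where that of all genes was 0.11 and 0.10.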

How the data were processed

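RNA from 5 mouse B9 cultures was measured on Affymetrix arrays. The authors deposited an intensity for each of 45101 probe sets, made with MAS5 per the submitters' processing notes, whose version the sources used here do not state. Every array was scaled by the authors to the same trimmed mean, which leaves signal-dependent differences in place. Genes were named from the platform annotation. The brightest of 34945 single-symbol probe sets was kept for each gene, and those whose mean reached 47.4, the median deposited value, were tested. Values were log2 of signal with 3.34, the 10th percentile, added; this understates changes of dim genes.

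Group means were fitted with limma 3.58.1 in R 4.3.3 (eBayes, intensity trend, 2 residual and 8.27 prior degrees of freedom). The lone DMSO array takes its variance from the treated groups. Tests were two-sided, and p-values were adjusted by Benjamini-Hochberg over all 10852 genes within a comparison. The number of arrays limits the precision. Members, lists and tests were chosen with earlier results of these data known. The naming rule gave each called member, each member whose probe sets disagreed and the called genes at either end of a list. The fit was also run on simulated data whose spread was taken from the same fit with its trend, so that run cannot test the trend. Motifs and figures used Python 3.11.15 and matplotlib 3.10.9.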

Additional observations from a re-analysis of the deposited data

How the results depend on the processing

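The members' calls in limma depended on how the spread was estimated. The member counts below are given without those of all genes under the same setting. A loss particular to the members and a general loss of power can therefore not be told apart. Without the trend other genes were still called, 60% of them higher with vemurafenib against PLX7904 and 60.5% against DMSO. With vemurafenib against PLX7904, 3 higher and 5 lower members became 0 and 0 with no intensity trend, and 1 and 3 both with no filter on signal and with the mean of all probe sets; centring over all probe sets, added after the data were seen, gave 4 higher (Ddit3 gained) and 2 lower. Against DMSO, 1 higher and 4 lower became 0 and 0 with no trend, 0 and 2 with no filter, 0 and 0 with the mean of all probe sets, 2 and 2 with median centring, and 2 lower with centring over all probe sets. Leaving out each replicate in turn gave 1 to 2 higher and 2 to 5 lower members against PLX7904, 0 to 1 higher and 2 to 5 lower against DMSO, and 0 to 1 lower for PLX7904 against DMSO. The replicate block kept all 8 calls against PLX7904 and left 2 lower against DMSO, where Nupr1 and Slc7a5 were lost; the replicate numbers did not pair the arrays (r = -0.0071). Over the called genes of the text, 296 of 436 alternatives kept the call, 135 ended it and 5 turned the direction. The 5 were, with the mean of all probe sets, Map1lc3b at -0.31 against PLX7904, and Dnajc3 at -0.036 and Eif2s2 at -0.13 against DMSO, and, without probe sets of suffix x, s or a, Sqstm1 at -0.0053 and Tubb2a at -0.038 against PLX7904. Averaging changes which probe sets enter; beyond that the cause was not tested. Slc1a4 and Ppp1r15a against PLX7904 kept their calls in 14 of 15 alternatives each, and Slc7a5 in 6 of 15. Without probe sets of suffix x, s or a, 23 members were tested, and the called Slc3a2 and Nupr1 had none left.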

Other observations

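Solute carriers outside the members, a set chosen after the data were seen, were read in the same fit. Of 179 tested carrier genes that are not members, 6 were higher and 7 lower with vemurafenib against PLX7904 in limma (7.26% called, beside 13.3% of all genes). Against DMSO 6 were higher and 5 lower (6.15%, beside 10.6%). With the members, 6 of 187 carriers were higher and 11 lower against PLX7904 (9.09% called, beside 13.3% of all genes).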
